A study of Mus musculus with 24 samples.

Results

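The 6 hair cell transcription factors Atoh1, Pou4f3, Gfi1, Barhl1, Lhx3 and Insm1 were followed through 24 mouse RNA sequencing libraries. They were picked by name, and all 6 of 6 were found among the 53946 genes of the count table, by gene symbol: Atoh1 (ENSMUSG00000073043), Pou4f3 (ENSMUSG00000024497), Gfi1 (ENSMUSG00000029275), Barhl1 (ENSMUSG00000026805), Lhx3 (ENSMUSG00000026934) and Insm1 (ENSMUSG00000068154). The tissue was the ventral otocyst, the part of the embryonic inner ear that holds the cochlea, at embryonic day 14.5, in mice of the labelled strain C57BL/6J x 129X1/SvJ. Mut embryos were Fgf20-/- and het embryos Fgf20+/-, so the het libraries also come from animals lacking 1 Fgf20 allele, and no wild-type library was analysed here. In TRAP (translating ribosome affinity purification), ribosomes carrying L10a-eGFP are pulled down with an antibody to GFP, and the tag was expressed in the Fgf20-Cre lineage, so TRAP is meant to favour RNA of cells descended from those that expressed that Cre. Pre-TRAP is the other collection label, and both kinds share 1 description of how RNA was extracted, so what pre-TRAP RNA was is known from its name alone. The groups were TRAP mut (n = 8), TRAP het (n = 8), pre-TRAP mut (n = 4) and pre-TRAP het (n = 4), each divided evenly between experiment 2 and experiment 1, the label's batches. Each library pooled 3 to 7 embryos of 1 genotype. The labels do not say whether pools came from separate litters, so p-values measure the spread between these pools. Library totals ran from 30745166 to 53374796 counts.

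Atoh1 is a basic helix-loop-helix factor that is required for hair cells to form and can drive other inner ear cells towards that fate. Pou4f3, a POU-homeodomain factor, acts after Atoh1 in hair cell differentiation and survival, and Gfi1, a zinc finger repressor, is needed for hair cells to survive. Barhl1, a homeodomain factor, is needed to maintain hair cells, Lhx3 is a LIM-homeodomain factor found in hair cells and in the pituitary, and Insm1 is a zinc finger repressor that in the cochlea marks nascent neurons and outer hair cells and keeps the outer hair cell fate. FGF20 is a secreted growth factor needed for the outer compartment of the organ of Corti. Hair cell differentiation in the mouse cochlea begins around this stage, starting near the base.

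Promoters are shown because Atoh1 and related factors bind the E-box CANNTG, and binding to these promoters was not tested. RefSeq (build GRCm38.p6) held promoters for 4 of the 6 members, and those of Pou4f3 and Insm1 are named only. Each run is the 250 bases before the most upstream start in that table, 5′ to 3′ on the gene's strand, with CANNTG in capitals, searched on both strands (the motif reads alike on both).
Atoh1, chr6:64728875-64729124, + strand: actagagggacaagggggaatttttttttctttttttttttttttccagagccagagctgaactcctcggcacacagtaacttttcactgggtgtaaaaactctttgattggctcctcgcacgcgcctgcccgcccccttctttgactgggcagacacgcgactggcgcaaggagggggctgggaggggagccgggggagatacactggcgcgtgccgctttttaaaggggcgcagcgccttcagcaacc
Gfi1, chr5:107725806-107726055, - strand: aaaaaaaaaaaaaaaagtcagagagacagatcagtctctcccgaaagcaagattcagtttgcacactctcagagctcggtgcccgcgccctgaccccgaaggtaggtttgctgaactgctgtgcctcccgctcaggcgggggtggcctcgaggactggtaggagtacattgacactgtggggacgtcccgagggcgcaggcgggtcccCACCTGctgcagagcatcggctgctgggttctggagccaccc
Barhl1, chr2:28916669-28916918, - strand: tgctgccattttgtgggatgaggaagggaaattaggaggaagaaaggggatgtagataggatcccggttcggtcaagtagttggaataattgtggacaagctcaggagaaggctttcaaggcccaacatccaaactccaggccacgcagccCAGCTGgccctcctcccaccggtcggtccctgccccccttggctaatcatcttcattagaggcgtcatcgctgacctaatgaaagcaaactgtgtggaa
Lhx3, chr2:26208250-26208499, - strand: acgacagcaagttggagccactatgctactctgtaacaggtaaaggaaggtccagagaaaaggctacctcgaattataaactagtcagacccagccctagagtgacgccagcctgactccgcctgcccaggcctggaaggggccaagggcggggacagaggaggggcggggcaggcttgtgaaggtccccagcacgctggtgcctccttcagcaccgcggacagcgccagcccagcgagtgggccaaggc
Gfi1 held 1 CANNTG, read as CACCTG, beginning 42 bases before the start. Barhl1 held 1, read as CAGCTG, beginning 99 bases before the start. Atoh1 and Lhx3 held none in these windows. Over all 32851 windows of this length, 66.2% held CANNTG and 13.0% held CAGCTG, a form of CANNTG. The homeodomain core TAATTA was in none of the 4 windows and in 4.84% of all windows. A match is a description of these letters only.

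All 6 factors were higher in TRAP than in pre-TRAP RNA. Levels are given as CPM, each gene's count relative to its library's total with trimmed-mean (TMM) scaling, and are compared between groups within a gene, not between genes. Atoh1 had 3.76 to 7.33 CPM in TRAP mut libraries (median 5.8) and 5.11 to 8.37 in TRAP het libraries (median 5.64). In pre-TRAP libraries Atoh1 had 0.294, 0.552, 0.585 and 0.679 CPM in mut and 0.69, 0.987, 1.15 and 1.53 in het. Every TRAP library lay above every pre-TRAP library of its genotype. The share of all genes without overlap between groups was not counted, here or in the comparisons below. Atoh1 was 7.72-fold higher in TRAP (log2 fold change 2.95 ± 0.18 SE, edgeR quasi-likelihood test, Benjamini-Hochberg adjusted p = 2.05e-13). With bulk RNA, fewer cells of a type and less RNA per cell cannot be told apart.

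Pou4f3 had 12.2 to 29.0 CPM in TRAP mut libraries (median 21.4) and 10.8 to 25.2 in TRAP het libraries (median 14.9). Its pre-TRAP levels were 2.36, 2.51, 2.71 and 3.2 CPM in mut and 1.86, 1.9, 1.98 and 2.48 CPM in het. TRAP and pre-TRAP libraries of Pou4f3 did not overlap within either genotype, and it was 7.93-fold higher in TRAP (log2 fold change 2.99 ± 0.19, edgeR adjusted p = 3.78e-13). Gfi1, the survival factor, had 1.1 to 2.98 CPM in TRAP mut libraries (median 1.6) and 0.561 to 1.69 in TRAP het libraries (median 1.17). Its pre-TRAP levels were 0, 0.248, 0.325 and 0.336 CPM in mut and 0.223, 0.226, 0.238 and 0.335 in het, the 0 being 0 counts in 1 library, which allows up to 0.0836 CPM (3 counts, counting error only). Gfi1 was 5.59-fold higher in TRAP (log2 fold change 2.48 ± 0.31, edgeR adjusted p = 1.43e-07), with no overlap within a genotype, and experiment 2 alone gave a log2 fold change of 3.08, experiment 1 alone 2.06.

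Barhl1 was the sparsest member, with 6 to 45 counts in TRAP mut libraries and 4 to 33 in TRAP het libraries. Its TRAP levels were 0.187 to 1.23 CPM in mut (median 0.473) and 0.105 to 0.733 in het (median 0.351), and pre-TRAP libraries held only 8 counts over the 4 mut and 7 over the 4 het libraries. Pre-TRAP levels of Barhl1 were 0, 0.0279, 0.0828 and 0.0839 CPM in mut and 0, 0.0282, 0.0558 and 0.112 in het. The 2 libraries at 0 counts allow up to 0.0885 CPM (mut) and 0.0714 CPM (het). The lowest TRAP het library lay below the highest pre-TRAP het library, and the mut groups did not overlap. Barhl1 was 8.87-fold higher in TRAP (log2 fold change 3.15 ± 0.47, edgeR adjusted p = 2.32e-06).

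Lhx3 had 0.562 to 2.96 CPM in TRAP mut libraries (median 1.92) and 0.657 to 2.2 in TRAP het libraries (median 1.26). Its pre-TRAP levels were 0, 0.0839, 0.167 and 0.221 CPM in mut and 0.0279, 0.0282, 0.0476 and 0.447 in het, the 0 allowing up to 0.0885 CPM. Pre-TRAP het library 23 stood above the other 3, and TRAP and pre-TRAP libraries did not overlap within either genotype. Lhx3 was 12.4-fold higher in TRAP (log2 fold change 3.64 ± 0.39, edgeR adjusted p = 1.08e-08), and the log2 fold change was 4.43 without pre-TRAP het library 23, 3.13 with experiment 2 alone, and 4.67 with experiment 1 alone. Insm1 had 8.64 to 38.9 CPM in TRAP mut libraries (median 15.2) and 6.28 to 24.7 in TRAP het libraries (median 14.2). Its pre-TRAP levels were 0.839, 1.12, 1.2 and 1.71 CPM in mut and 0.88, 0.95, 1.61 and 3.15 in het, without overlap with TRAP. Insm1 was 12.2-fold higher in TRAP (log2 fold change 3.61 ± 0.32, edgeR adjusted p = 2.56e-10).

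**Figure D1:**
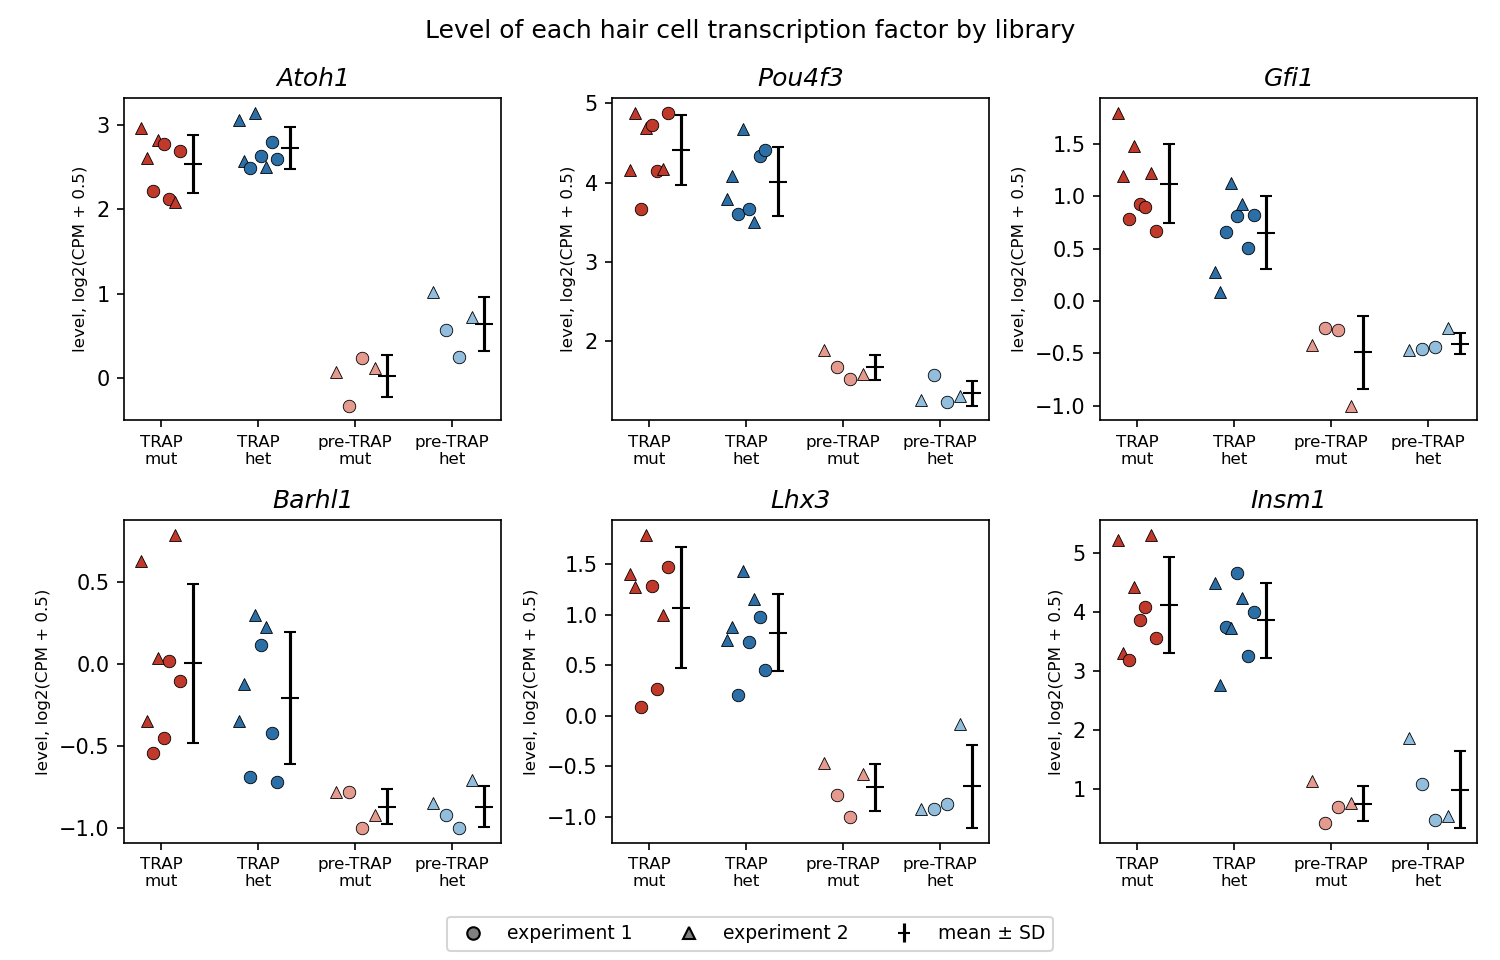
Level of each factor as log2(CPM + 0.5) (y axis) in each library, grouped by TRAP or pre-TRAP and genotype on the x axis; circles are experiment 1, triangles experiment 2, and bars show mean ± SD. TRAP points sit above pre-TRAP points for all factors, with a single pre-TRAP het library reaching into the TRAP range for Barhl1.

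The rise in TRAP held for 6 of 6 members, beside 27.9% of 24242 genes called higher, 31.2% called lower and 59.1% called either way. Barhl1 and Lhx3 did not pass the count filter in pre-TRAP libraries alone, where Lhx3 held 18 counts over the mut and 20 over the het libraries. They entered this fit through their TRAP counts, so the filter itself favoured a rise for them, and their calls add little to the count. Within mut embryos the log2 fold changes were 3.38 for Atoh1, 3 for Pou4f3, 2.86 for Gfi1, 3.28 for Barhl1, 3.93 for Lhx3 and 3.96 for Insm1, where 21.8% of genes were called higher. Within het embryos they were 2.52, 2.97, 2.1, 3.02, 3.34 and 3.26 in that order of genes, where 19.5% were called higher. The share of genes with a smaller log2 fold change was 98.9% to 99.9% for the members in mut and 97.3% to 99.7% in het. In each experiment alone all 6 were called higher.

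Genes of hair cell structure and function rose with the factors, with 18 of 24 tested called higher, 1 lower and a median log2 fold change of 1.77, beside -0.015 for all genes. Lhfpl5, a part of the mechanotransduction complex, was 3.28 ± 0.22 and Pvalb, a calcium-binding protein also made by neurons, was 3.17 ± 0.16, while the myosin Myo15 was lower at -1.16 ± 0.21 and Myo6 had 0.16 ± 0.12 (edgeR adjusted p = 0.247). Of regulators of Atoh1 (Notch ligands and repressors, Id factors, prosensory factors), 13 of 19 were higher and 2 lower, with a median of 1.15. The prosensory factor Sox2 had a log2 fold change of 2.7 ± 0.17 and Id4 1.73 ± 0.16, and the abundant Gata3 had 1.57 ± 0.1 and Id2 0.99 ± 0.12. The repressor Heyl at -0.78 ± 0.11 and Id3 at -0.77 ± 0.1 were the 2 lower.

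Among other sensory transcription factors 11 of 17 were higher and 2 lower (median 0.48), led by the neuronal helix-loop-helix factors Nhlh1 (4.1 ± 0.2) and Nhlh2 (3.27 ± 0.22), with the abundant Isl1 at 2.66 ± 0.09 and Sox11 at 1.27 ± 0.16. Rfx2 (-0.54 ± 0.16) and Rfx1 (-0.54 ± 0.17) were lower, and each lost its call in 1 of the experiments alone (Rfx2 in experiment 2, Rfx1 in experiment 1). Genes linked to Atoh1 counted 10 higher and 1 lower of 11 (median 1.7), among them Mreg (2.86 ± 0.22) and Rasd2 (2.88 ± 0.18), with Selenom lower (-0.68 ± 0.1). Otic epithelium genes had 8 of 10 higher and 1 lower (median 1.57), with the tectorial membrane gene Tectb at 2.89 ± 0.14 and Oc90, an otoconial matrix gene, lower at -1.53 ± 0.17.

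Of the lists for other cell types, neuron genes rose with the factors, while mesenchyme and blood genes mostly went the other way. Neuron genes were higher for 12 of 14 tested (median 2.56), and their summed level was 4250 to 5730 CPM in TRAP mut, 3010 to 5840 in TRAP het, 680 to 945 in pre-TRAP mut and 591 to 924 in pre-TRAP het libraries. Neurod1 had 3.07 ± 0.13, Elavl3 3.04 ± 0.18, Stmn2 2.79 and Tubb3 2.43. The receptor gene Ntrk2 was lower (-0.26) in the fit of all libraries, a call lost when any 1 of TRAP het 3, 5, 7 or 12, TRAP mut 10 or 13, pre-TRAP het 17 or 19, or pre-TRAP mut 18, 20 or 24 was left out (-0.31 to -0.15 over all 24 such fits). Insm1 and Nhlh1 are also made by neurons, and the part of neuron RNA in the rise of the members was not tested. Mesenchyme genes were lower for 9 of 12 and blood genes for 7 of 11 tested, but both remained in TRAP RNA, with summed blood levels of 309 to 635 CPM in TRAP mut, 197 to 512 in TRAP het, 2460 to 5560 in pre-TRAP mut and 2450 to 4950 in pre-TRAP het libraries. Hindbrain regulators such as Hoxb1, En1 and En2 (9 of 12 genes) had a mean under 0.1 CPM in TRAP. Of the 4 hindbrain genes tested, 1 was called higher and 2 lower (median -1.64). The higher one, Slc17a6 (2.31 ± 0.12), averaged 27.3 CPM in TRAP mut and 23.3 in TRAP het. The list summed to 22.4 to 36.5 CPM in TRAP mut, 21.0 to 29.1 in TRAP het, 11.2 to 13.9 in pre-TRAP mut and 9.7 to 13.5 in pre-TRAP het libraries. Its part in the levels of the members was not tested. Lhx3 is also a pituitary factor, and of 11 endocrine and Merkel cell genes 4 in TRAP mut and 5 in TRAP het had a mean under 0.1 CPM, among them the pituitary genes Pou1f1 and Cga. Of the 6 tested, 5 were called higher in TRAP and 1 lower (median 0.83). The hormone precursor gene Pomc was higher at 1.03 ± 0.15 and the secretory granule genes Chga and Chgb at 2.39 ± 0.19 and 2.34 ± 0.14. The keratin genes Krt8 (0.62 ± 0.09) and Krt18 (0.26 ± 0.09) were also higher, and Piezo2 was lower (-1.65 ± 0.27). Krt18 and Krt8 were the most abundant of the list, with means of 62.3 and 48.4 CPM in TRAP mut and 68.7 and 51.0 in TRAP het. The list summed to 109 to 167 CPM in TRAP mut, 134 to 179 in TRAP het, 103 to 113 in pre-TRAP mut and 98.7 to 113 in pre-TRAP het libraries, and its part in the level of Lhx3 was not tested.

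**Figure D2:**
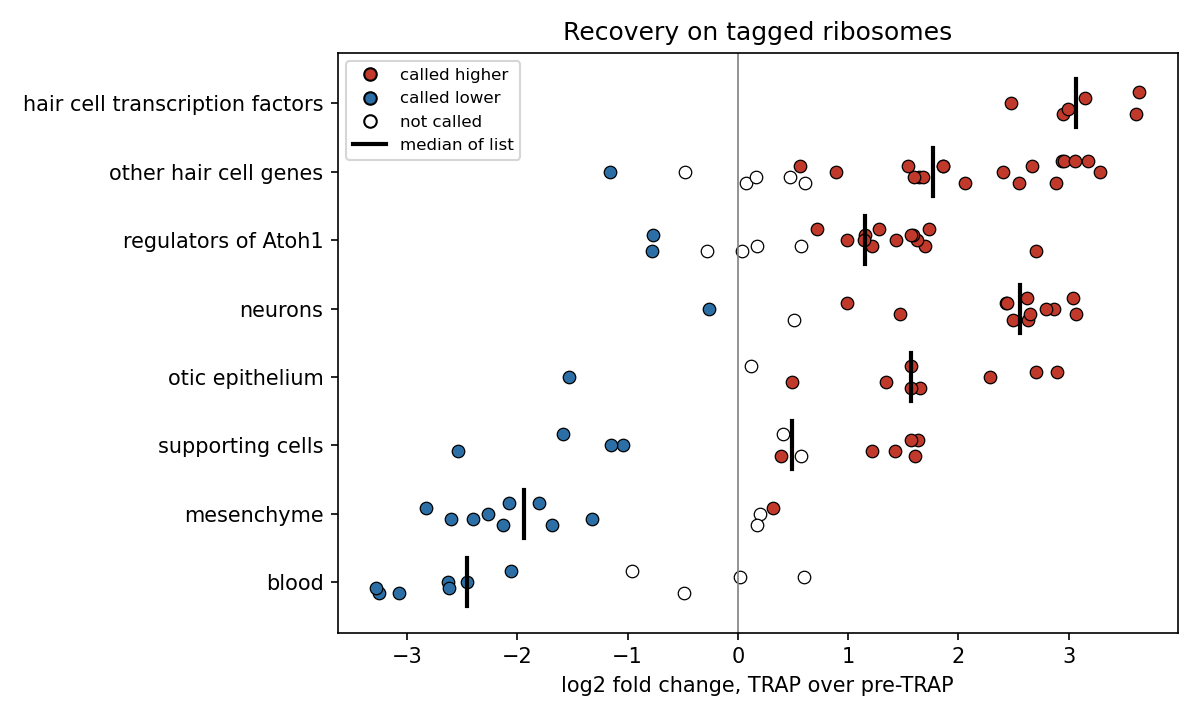
Log2 fold change, TRAP over pre-TRAP (x axis), for each gene of 8 lists (rows), with the list median as a bar; filled points were called. The 6 factors lie between 2.48 and 3.64, and mesenchyme and blood genes lie mostly below 0.

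Between genotypes, 0 of the 6 factors were called in TRAP RNA, beside 0.0742% of 21577 genes called either way (edgeR, 16 genes), 0.0185% higher and 0.0556% lower. DESeq2 called 0 of them too. In edgeR 1 had an unadjusted p under 0.05, beside 813 of all genes. Atoh1 averaged 5.46 ± 1.36 CPM in TRAP mut and 6.2 ± 1.25 in TRAP het libraries (SD, n = 8 each), a log2 fold change of -0.2 (95% interval -0.54 to 0.14). Pou4f3 averaged 21.6 ± 6.31 in mut and 16.3 ± 5.19 in het, 0.39 (-0.03 to 0.82). Gfi1 averaged 1.75 ± 0.631 in mut and 1.11 ± 0.369 in het, 0.58 (0.08 to 1.09), with an unadjusted edgeR p of 0.0265 and an adjusted p of 1. In 7 of 8 mut libraries Gfi1, and in 7 of 8 Pou4f3, lay above the het median, and the groups of each factor overlapped.

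The remaining 3 factors also overlapped between genotypes in TRAP. Barhl1 averaged 0.557 ± 0.383 CPM in mut and 0.396 ± 0.246 in het, 0.43 (-0.38 to 1.24) on the log2 scale. Lhx3 averaged 1.75 ± 0.804 in mut and 1.33 ± 0.487 in het, 0.39 (-0.19 to 0.96). Insm1 averaged 19.5 ± 11.9 in mut and 15.2 ± 6.27 in het, 0.25 (-0.4 to 0.9), and the value was -0.31 in experiment 1 alone and -0.35 when the neuron level (the mean log2 CPM of the neuron list) was a covariate. Atoh1 was the only member with a negative log2 fold change in TRAP, and it was negative in both experiments (-0.21 in experiment 2, -0.16 in experiment 1). The other within-experiment values were 0.43 and 0.38 for Pou4f3, 1.01 and 0.17 for Gfi1, 0.39 and 0.4 for Lhx3, and 0.83 and -0.31 for Insm1, in experiment 2 and experiment 1. Barhl1 had 0.53 in experiment 2 and did not pass the count filter in experiment 1. Adjusted edgeR p was 1 for all 6.

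Pre-TRAP RNA let 4 of the 6 be tested, since Barhl1 and Lhx3 did not pass the minimum-count filter, and 0 were called (background 0.00455%, 1 of 21954 genes; DESeq2 also 0; Atoh1 and 1048 genes in all at an unadjusted p under 0.05). Atoh1 averaged 0.527 ± 0.165 CPM in pre-TRAP mut and 1.09 ± 0.351 in pre-TRAP het libraries (SD, n = 4 each). All 4 mut libraries lay below all 4 het libraries, the highest mut at 0.679 CPM and the lowest het at 0.69. How many of all genes separate in this way was not counted. The log2 fold change of Atoh1 was -1.04 (95% interval -1.74 to -0.34; edgeR adjusted p = 0.837), from 14 to 23 counts in mut and 29 to 55 in het libraries. It was -1.22 in experiment 2 and -0.8 in experiment 1. Pou4f3 averaged 2.69 ± 0.367 in mut and 2.05 ± 0.29 in het, 0.38 (-0.08 to 0.84), with 3 of 4 mut libraries above every het library. Gfi1 averaged 0.227 ± 0.156 in mut and 0.255 ± 0.0536 in het, -0.23 (-1.54 to 1.08), and it was 0.24 without pre-TRAP mut library 24, 0.04 without pre-TRAP het library 23 and 0.51 in experiment 1 alone. Insm1 averaged 1.22 ± 0.363 in mut and 1.65 ± 1.05 in het, -0.43 (-1.2 to 0.34), and 0.03 without pre-TRAP het library 17, its highest library.

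**Figure D3:**
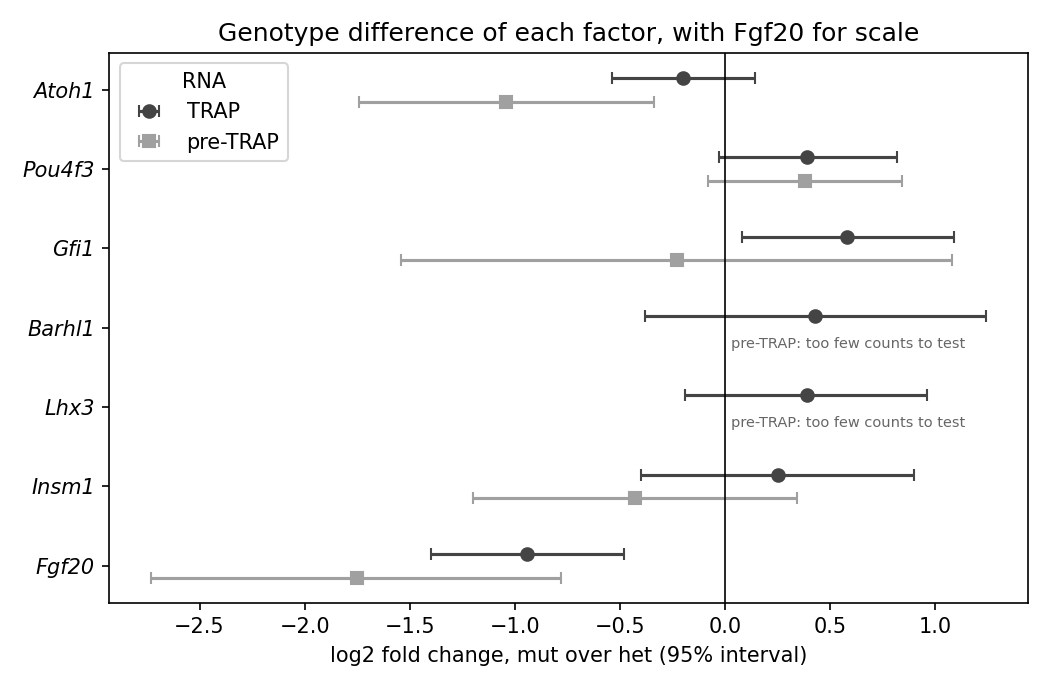
Log2 fold change, mut over het (x axis, with 95% intervals), of each factor and Fgf20 in TRAP and pre-TRAP RNA. Most intervals of the factors cross 0, except Gfi1 in TRAP (0.08 to 1.09) and Atoh1 in pre-TRAP (-1.74 to -0.34), and neither was called after adjustment.

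Every mut library had a lower level of the mutated gene Fgf20 than every het library of the same kind of RNA. It averaged 2.24 ± 0.738 CPM in TRAP mut and 4.2 ± 0.975 in TRAP het, and 0.237 ± 0.0702 in pre-TRAP mut and 0.879 ± 0.578 in pre-TRAP het libraries. Its TRAP log2 fold change of -0.94 ± 0.22 missed the threshold in edgeR (adjusted p = 0.188) and passed in DESeq2 (adjusted p = 0.011). In pre-TRAP the log2 fold change of -1.75 ± 0.45 passed in neither (adjusted p = 0.837 in edgeR and 0.927 in DESeq2). Reads of Fgf20 were counted in mut libraries too, and where they lie in the gene was not examined here. Among 18 tested regulators of Atoh1 in TRAP, Hey2, a Notch effector that represses Atoh1, was the 1 called, at 10.3 ± 1.35 CPM in TRAP mut and 22.3 ± 4.85 in TRAP het libraries (log2 fold change -1.13 ± 0.14, edgeR adjusted p = 0.000818). The regulators' median was -0.02, with Gata3 at 0.21 and Id2 at 0. In pre-TRAP 0 of 18 were called (median -0.16; DESeq2 was not counted for lists, and 3 had an unadjusted edgeR p under 0.05), with Gata3 at 0.01 and Id2 at 0.05.

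Further lists were counted in the genotype comparison. In TRAP, hair cell structural genes had 18 positive and 5 negative of 23 tested, with 0 called by edgeR, 3 at an unadjusted p under 0.05 and a median of 0.23, with Pvalb at -0.08 and Myo6 at 0.24. Neuron genes had 11 positive of 13, with 0 called, 3 at an unadjusted p under 0.05 and a median of 0.08, Stmn2 being 0.05 and Tubb3 0.2. In pre-TRAP, hair cell structural genes had 8 positive of 20 with a median of -0.1 (Pvalb -0.23, Myo6 -0.17), and neuron genes a median of 0 (Stmn2 -0.05, Tubb3 0.33). Otic epithelium genes had 7 of 10 negative in TRAP (median -0.22, 1 called lower, 5 at an unadjusted p under 0.05) and 8 of 10 negative in pre-TRAP (median -0.32, 1 called lower, 4 at an unadjusted p under 0.05). Supporting cell genes had 5 of 11 negative in TRAP (median 0.06) and 7 of 11 in pre-TRAP (median -0.11), with 0 called by edgeR and 2 at an unadjusted p under 0.05 in each. The part of these lists in the pre-TRAP difference of Atoh1 was not tested. The 1 otic epithelium gene called in both, Tectb, was lower in mut, at 74.6 ± 20.0 CPM in TRAP mut and 277 ± 30.4 in TRAP het (log2 fold change -1.91, edgeR adjusted p = 1.24e-06) and at 10.1 ± 2.1 in pre-TRAP mut and 37.9 ± 11.7 in pre-TRAP het (-1.9, edgeR adjusted p = 0.00032).

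The genotype difference was then compared between the kinds of RNA. Of 24242 genes 0% were called by edgeR for this interaction (DESeq2 0, with 302 at an unadjusted p under 0.05), and 0 of the 6 factors. Atoh1 had an interaction of 0.87 ± 0.33 on the log2 scale (edgeR adjusted p = 1), its genotype difference being -0.2 in TRAP and -1.04 in pre-TRAP. Pou4f3 had 0.03 ± 0.34, Gfi1 0.76 ± 0.61, Insm1 0.69 ± 0.56, Lhx3 0.58 ± 0.79 and Barhl1 0.25 ± 1.07. The 95% interval for Pou4f3 ran from -0.66 to 0.73, and for Atoh1 from 0.19 to 1.54.

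Experiment was a further source of spread. In TRAP, 1 of 6 factors was called higher in experiment 2 than in experiment 1, beside 14.1% of 21577 genes called higher, 8.81% called lower and 23% either way. Barhl1 averaged 0.772 ± 0.44 CPM in mut and 0.526 ± 0.211 in het libraries of experiment 2, and 0.342 ± 0.157 in mut and 0.266 ± 0.226 in het libraries of experiment 1 (SD, n = 4 each; log2 fold change 1.12 ± 0.39, edgeR adjusted p = 0.044). That call was lost on leaving out any 1 of TRAP mut libraries 2, 6, 10, 14 or 16 or TRAP het libraries 5, 7, 11, 12 or 15, where the adjusted p was 0.0555 to 0.102. Lhx3 had 0.68 ± 0.28 (edgeR adjusted p = 0.0811), and it was called without TRAP mut library 16 (0.84, adjusted p = 0.0348). Insm1 had 0.55 ± 0.31, Gfi1 0.44 ± 0.24, Atoh1 0.26 ± 0.16 and Pou4f3 0.12 ± 0.2, none called. In pre-TRAP 0 of the 4 tested were called by edgeR, beside 9.74% of genes higher, 4.97% lower and 14.7% either way (DESeq2 also 0; 0 at an unadjusted p under 0.05), with Insm1 at 0.67 ± 0.36, Atoh1 at 0.51 ± 0.32, Pou4f3 at 0.03 ± 0.21 and Gfi1 at -0.49 ± 0.61.

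Whether the genotype difference in TRAP changed between experiments was tested next. In TRAP 0% of genes were called for this interaction by edgeR (DESeq2 also 0). In edgeR 455 genes and 0 of 6 factors had an unadjusted p under 0.05. Insm1 had 1.16 ± 0.57 (edgeR adjusted p = 0.97): it averaged 26.4 ± 13.9 CPM in mut and 14.8 ± 6.84 in het libraries of experiment 2, and 12.6 ± 3.35 in mut and 15.5 ± 6.69 in het libraries of experiment 1. Gfi1 had 0.87 ± 0.46 (edgeR adjusted p = 0.97), from 2.22 ± 0.557 in mut and 1.09 ± 0.539 in het in experiment 2 and 1.27 ± 0.142 in mut and 1.13 ± 0.163 in het in experiment 1. The interactions of the other members were -0.02 for Atoh1, 0.08 for Pou4f3, 0.22 for Barhl1 and 0.01 for Lhx3.

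Across the 16 TRAP libraries the factors were compared with each other, as log2(CPM + 0.5) with genotype-by-experiment means removed. Over the 15 pairs Pearson's r ran from -0.41 to 0.69 with a median of 0.27, and 11 were positive. The highest was Atoh1 with Lhx3 (r = 0.69, permutation p = 0.0188, adjusted p = 0.162; Spearman rho = 0.67, permutation p = 0.0233, adjusted p = 0.31), at 0.52 in experiment 2 and 0.96 in experiment 1. Pou4f3 with Lhx3 had r = 0.68 (permutation p = 0.0217, adjusted p = 0.162; rho = 0.56, permutation p = 0.0587, adjusted p = 0.31), and 0.5 without its 2 libraries farthest from the median. Barhl1 with Insm1 had r = 0.62 (permutation p = 0.0407, adjusted p = 0.18; rho = 0.57, permutation p = 0.0621, adjusted p = 0.31) and 0.45 without the 2 farthest. Atoh1 with Pou4f3 had r = 0.56 (permutation p = 0.0481, adjusted p = 0.18; rho = 0.46, permutation p = 0.109, adjusted p = 0.41) and 0.68 without the 2 farthest, and Atoh1 with Lhx3 had 0.71. Pou4f3 with Insm1 was lowest (r = -0.41, permutation p = 0.138, adjusted p = 0.345; rho = -0.31, permutation p = 0.267, adjusted p = 0.501), and -0.7 without the 2 farthest. No pair passed the adjustment with all 16 libraries. With the neuron level removed Pou4f3 with Insm1 passed (r = -0.72, permutation adjusted p = 0.0223). Without TRAP het library 1, Atoh1 with Lhx3 (r = 0.79) and Barhl1 with Insm1 (r = 0.81) passed, each with a permutation adjusted p of 0.0334.

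**Figure D4:**
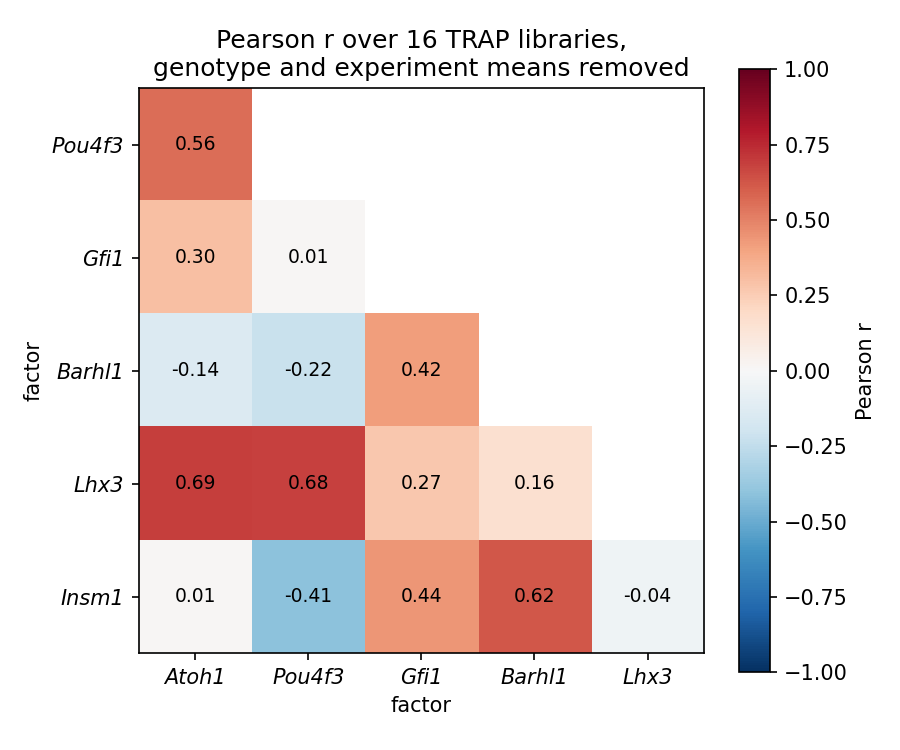
Pearson r between each pair of factors (axes) over the 16 TRAP libraries with genotype and experiment means removed; the colour scale runs from -1 to 1. Values run from -0.41 (Pou4f3 with Insm1) to 0.69 (Atoh1 with Lhx3), and none passed the adjustment over 15 pairs with all 16 libraries and no cell type level removed.

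The genes whose TRAP levels were most like each member were found among 14605 genes with a mean of at least 2 CPM, over 16 libraries, as a description with no test. Atoh1 was most like Trmt1 (r = 0.83), Myo5c (0.82) and Zfp526 (0.81). Pou4f3 was most like Gtf3a (0.91), Ap3m2 (0.88) and Me2 (0.88), and Gfi1 like Gm26894 (0.79), Klf11 (0.77) and Gm14584 (0.72). Those of Gfi1 differed between experiments, in that order 0.39, 0.56 and 0.67 in experiment 1 and 0.84, 0.84 and 0.81 in experiment 2. Barhl1 was most like Tmem30b (0.83), Usp25 (0.79) and Lrp11 (0.78), and Lhx3 like Klhl5 (0.85), Phb2 (0.84) and Nrg1 (0.84). Insm1 was close to Irx2 and Mettl9 (0.98 each), with r of 0.98 to 0.99 in experiment 2 and 0.96 to 0.97 in experiment 1.

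The level of Pou4f3 relative to Atoh1 within a library was also compared, a ratio chosen after the values had been seen, in which gene length cancels between groups. The ratio of counts was 2.37 to 5.18 in TRAP mut libraries (median 4.23) and 1.71 to 3.74 in TRAP het libraries (median 2.61). It was 3.43, 4.21, 5.68 and 8.93 in pre-TRAP mut and 1.23, 1.72, 2.49 and 2.66 in pre-TRAP het libraries. The TRAP groups overlapped and the pre-TRAP groups did not. The log2 difference, mut minus het, was 0.62 in TRAP (exact permutation of genotype within experiment, two-sided p = 0.0102, adjusted p = 0.0765 over the 15 pairs of members; 7 of 8 mut libraries above the het median; 0.69 in experiment 2 and 0.54 in experiment 1). Leaving out single TRAP libraries, it passed without mut library 2 (0.73, exact permutation adjusted p = 0.0306) and without het library 15 (0.69, adjusted p = 0.0429), and did not pass in the other 14 fits (adjusted p of 0.0592 to 0.165) or without libraries 3, 4, 5 and 6 (0.63, adjusted p = 0.188). In pre-TRAP it was 1.42 (exact permutation p = 0.0556, the smallest this design allows, adjusted p = 0.833), 1.75 in experiment 2 and 1.1 in experiment 1. Gfi1 over Atoh1 differed by 0.85 in TRAP (exact permutation p = 0.0049, adjusted p = 0.0735), with 1.34 in experiment 2 and 0.36 in experiment 1. Its pre-TRAP difference was 0.15 (exact permutation p = 0.944), with -1.05 in experiment 2 and 1.35 in experiment 1. Lhx3 over Atoh1 differed by 0.5 in TRAP (exact permutation p = 0.0461, adjusted p = 0.231), with 0.6 in experiment 2 and 0.4 in experiment 1, and by 1.11 in pre-TRAP (exact permutation p = 0.444, adjusted p = 0.951). Barhl1 over Atoh1 differed by 0.69 in TRAP (exact permutation p = 0.149, adjusted p = 0.559). For Insm1 over Atoh1 the TRAP value was 0.47 (exact permutation p = 0.275, adjusted p = 0.679), being -0.06 with experiment 1 alone and 0.99 with experiment 2 alone. Among ratios without Atoh1 the smallest exact permutation p in TRAP was 0.243 (Insm1 over Gfi1, -0.38). All ratios to Atoh1 share its counts, so they are not independent of each other.

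**Figure D5:**
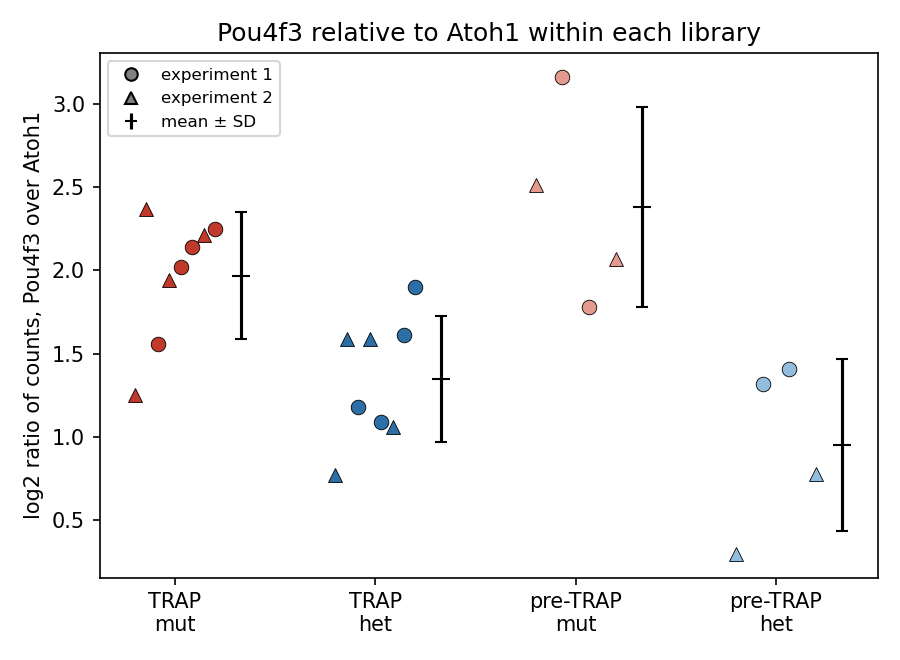
Log2 ratio of Pou4f3 to Atoh1 counts (y axis) in each library, by group on the x axis, with circles for experiment 1, triangles for experiment 2 and bars for mean ± SD. The TRAP mut ratios run from 2.37 to 5.18 and the TRAP het ratios from 1.71 to 3.74 on the linear scale, and the pre-TRAP genotypes do not overlap.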

How the data were processed

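Per the labels, libraries were built from polyA RNA (Picopure purification, Clontech SMARTer cDNA). The deposited table holds raw counts per Ensembl gene; STAR, DESeq2 and GRCm38.p5 are named in the submitters' processing notes. Tool versions, annotation, counter and strand setting: not given in the sources used here. Symbols were matched for 53274 of 53946 genes. Each comparison was fitted to the counts of all genes in edgeR 4.0.16 (R 4.3.3; TMM, filterByExpr with a minimum count of 10, quasi-likelihood F tests, experiment as a covariate), and calls were made at 0.05 after Benjamini-Hochberg adjustment over all genes tested. DESeq2 1.42.0 was an alternative, with other scalings, filters, covariates, single experiments and each library left out. Log2 levels used a pseudocount of 0.5 CPM. Totals were 30745166 to 53374796 counts, and counts were fewest for Barhl1 and, within each member, in pre-TRAP. The steps were tested on simulated counts.

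The members and the 12 other gene lists were chosen with earlier results of these data known, so no list is independent evidence. Named were the members and Fgf20; for each member its 3 most similar genes; and of a described list the called genes (or, above 5, the 2 largest changes each way) and its 2 most abundant genes, called or not. A few genes that the rule or a list names are not reported here. No columns were left unassigned. Antisense partners cannot be told apart without the strand setting.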

Additional observations from a re-analysis of the deposited data

Results flagged for a closer look

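In 24 groups of member levels checked, the pre-TRAP het group gave 2 values far from the other 3 libraries, both in library 23: Gfi1 at 0.335 CPM, where the gap to the next library was 0.867 of the group's range, and Lhx3 at 0.447 CPM, where it was 0.953. They rest on 12 and 16 counts, and chance alone marks about 1 in 20 groups. Without this library the genotype difference of Gfi1 in pre-TRAP was 0.04 on the log2 scale.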

How the results depend on the processing

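No paired analysis was possible because the library numbers 1 to 24 are unique, so the groups compared share no number, and the labels match no TRAP library with a pre-TRAP one. The labels do not say whether TRAP and pre-TRAP libraries came from the same embryo pools. The fits of all 24 libraries treated them as independent, so their p-values do not allow for shared pools. The counts of members called in the genotype comparisons (0 in TRAP, 0 in pre-TRAP), in TRAP against pre-TRAP (6) and in the genotype interactions (0) did not change under any alternative run. Without TRAP libraries 3, 4, 5 and 6, whose mesenchyme level was 5.06 to 5.77 (mean log2 scale) against 4.09 to 4.86 in the other 12, 0 members were called in TRAP experiment 2 against 1 (Barhl1 1.09), and with single libraries left out 0 to 1 were. In pre-TRAP experiment 2 against 1 the range was 0 to 1 (1 without pre-TRAP het library 17). With the neuron level removed 1 pair of members passed (Pou4f3 with Insm1, r = -0.72, permutation adjusted p = 0.0223), and with single libraries left out 0 to 2 did (2 without TRAP het library 1). The Pou4f3 over Atoh1 difference in TRAP was 0.54 to 0.73 with single libraries left out. Over the TRAP genotype comparison, 16 genes were called by edgeR, 53 by DESeq2, 27 without a filter, 4 without the experiment covariate, 2 in either experiment alone, 35 in 1 fit of all 24 libraries, 231 with the neuron covariate and 26 with the mesenchyme covariate. In pre-TRAP, 1 was called by edgeR, 2 by DESeq2, 2 with either covariate, 0 without the experiment covariate and 0 in experiment 2 alone. For the 2 interactions 1 gene each was called without a filter, and 0 otherwise.

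Signs turned, none called, as follows. In TRAP genotype: Id2, 0 as reported, was 0.01 with DESeq2 size factors, no filter, DESeq2 or all 24 libraries, 0.03 in experiment 2 alone and 0.15 without libraries 3 to 6 (-0.07 to 0.06 leaving out single libraries). Insm1 was -0.31 in experiment 1 alone and -0.35 with the neuron covariate. Stmn2 was -0.13 and -0.17 there (-0.04 to 0.11). Pvalb was 0.13 in experiment 2 alone and 0.06 without libraries 3 to 6 (-0.18 to 0.02). In pre-TRAP genotype, Gfi1 was 0.51 in experiment 1 alone (-0.45 to 0.24), and Gata3 -0.02 there and with the neuron covariate (-0.08 to 0.15). With the mesenchyme covariate Insm1 was 0.05 (-0.69 to 0.03), Id2 -0.11 (-0.07 to 0.27) and Stmn2 0.06 (0.05 in experiment 2 alone, -0.13 to 0.05). In the genotype by method interaction, experiment 1 alone gave Gfi1 -0.35 and Barhl1 -1.29 (-0.3 to 0.96), and Pou4f3 was -0.15 in experiment 2 alone and -0.02 without libraries 3 to 6 (-0.13 to 0.15). Lhx3 ran from -1.06 to 0.98. In TRAP experiment 2 against 1 Pou4f3 was -0.12 without libraries 3 to 6 (-0.01 to 0.2). In pre-TRAP experiment 2 against 1 Pou4f3 ran from -0.07 to 0.18 and Gfi1 from -0.82 to 0.01. In the genotype by experiment interaction, Lhx3 was -0.01 without a filter and -0.12 without libraries 3 to 6 (-0.27 to 0.37), Pou4f3 -0.14 without those libraries (-0.13 to 0.36), Atoh1 -0.15 to 0.14 and Barhl1 -0.53 to 0.49. The cause was not tested. Tectb in pre-TRAP lost its call without the experiment covariate (-1.93) and in experiment 2 alone (-1.76), and Hey2 in TRAP in experiment 1 (-1.14) and experiment 2 (-1.1) alone.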
